A study of Mus musculus with 6 samples.

Results

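The Ly6 family was examined in CD8 T cells from mouse tumours through 7 genes chosen by name from the deposited count table of 40879 genes: Ly6a (Sca-1), Ly6c1, Ly6c2, Ly6d, Ly6e, Ly6i and Ly6g5b. The choice was made with the Biotin+ against Biotin- values of these libraries known, so that contrast is described for the 7 genes and not tested. The cells were infiltrating lymphocytes of MC38-hPD-L1 tumours, a mouse colon carcinoma line carrying human PD-L1, grown for 12 days on C57BL/6N mice. Cells next to tumour cells had been tagged by photocatalytic proximity labelling, and sorting gave 3 Biotin+ libraries (tumour-neighbouring cells) and 3 Biotin- libraries (tumour-distal cells). All 6 libraries thus share the strain, the tumour line and the tumour age. The labels do not say whether a replicate is 1 animal or a pool, so the errors measure the spread between these libraries, part of which may be technical.

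Ly6 proteins are small, cysteine-rich surface proteins held together by disulphide bonds in a three-finger fold, and most are tethered to the membrane by a glycosylphosphatidylinositol (GPI) lipid anchor. Ly6A, known as Sca-1, marks blood stem cells and is also carried by activated lymphocytes. Ly6C, the product of Ly6c1 or Ly6c2, marks memory CD8 T cells and inflammatory monocytes, and Ly6A and Ly6C are induced by interferons. Ly6c1 is also a gene of blood vessel lining and of some connective tissue cells.

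Ly6c1 and Ly6c2 are close copies of each other, and the results turn on telling them apart. Of the 7 genes, 6 lie in a cluster on chromosome 15, in the order Ly6d, Ly6e, Ly6i, Ly6a, Ly6c1, Ly6c2. On the GRCm38.p6 build, in RefSeq, Ly6d starts the cluster at chr15:74762056-74763567 and Ly6e follows at chr15:74955025-74959904. Ly6i spans chr15:74979534-74983434 and Ly6a chr15:74994877-74998031. Ly6c1 spans chr15:75044018-75048920 and Ly6c2 chr15:75108161-75112066. Ly6g5b lies apart, at chr17:35113944-35118558. The coding sequences of Ly6c1 and Ly6c2 are both 396 bases long, for 131 residues with 12 cysteines, and differ at 9 bases (97.7% identity). The next closest pair, Ly6a and Ly6i, shares 86.4% of aligned coding bases. Ly6a shares 83.8% with Ly6c1, and no pair with Ly6d, Ly6e or Ly6g5b exceeds 71.5%. Of the 9 differences, 6 fall between coding positions 6 and 65, counted from the A of the start codon. That stretch is shown, 5′ to 3′ from GENCODE M21 transcripts, because reads that cover its capitals (the differing bases) tell the 2 genes apart.
Ly6c1: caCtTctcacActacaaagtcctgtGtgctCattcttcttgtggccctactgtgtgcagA
Ly6c2: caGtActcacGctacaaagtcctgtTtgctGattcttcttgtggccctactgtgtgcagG

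Over the whole coding sequence, 64.6% of 322 windows of 75 bases cover at least 1 difference. Over whole transcripts, 14.7% of the 75-base windows of Ly6c1 also occur in Ly6c2 and 4.37% occur in Ly6a. For Ly6c2, 9.46% of windows are shared with Ly6c1. The share was 6.33% for Ly6a and 0.519% for Ly6i, and no such window was shared by Ly6d, Ly6e or Ly6g5b. How the authors counted reads that fit several genes is not given in the sources used here, so a part of the Ly6c1 and Ly6c2 counts is uncertain.

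The upstream sequence of Ly6c2 resembles that of another gene more than that of Ly6c1. Ly6a2, a further Ly6 gene next to Ly6c2 at chr15:75131292-75135128, is protein-coding in RefSeq and a transcribed pseudogene in GENCODE M21. It is not among the 7 genes, but its level moved with Ly6c2 (below). Upstream stretches of the 3 genes are shown 5′ to 3′ on the minus strand, from RefSeq on GRCm38.p6, up to the outer edge of each gene model or the matching base. Capitals in Ly6c1 (chr15:75048921-75049087) and Ly6c2 (chr15:75112067-75112221) mark runs of at least 12 bases held by both. The capital in Ly6a2 (chr15:75135219-75135373) marks its only difference from Ly6c2 over the 155 bases shown.
Ly6c1: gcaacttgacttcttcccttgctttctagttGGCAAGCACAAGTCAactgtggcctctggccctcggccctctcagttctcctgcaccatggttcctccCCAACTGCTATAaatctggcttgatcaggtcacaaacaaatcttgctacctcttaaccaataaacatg
Ly6c2: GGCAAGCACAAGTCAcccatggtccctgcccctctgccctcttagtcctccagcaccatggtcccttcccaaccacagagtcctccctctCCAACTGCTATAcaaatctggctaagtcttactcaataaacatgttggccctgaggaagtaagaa
Ly6a2: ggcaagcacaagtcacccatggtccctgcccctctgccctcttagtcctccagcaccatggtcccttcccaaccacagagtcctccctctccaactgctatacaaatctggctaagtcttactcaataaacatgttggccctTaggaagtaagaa

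Over those 155 bases, Ly6c2 and Ly6a2 were 99.4% identical, and Ly6c1 and Ly6c2 were 73.9% identical over 134 aligned bases. The 250 bases before each annotated start of Ly6c1, Ly6c2, Ly6a2 and Ly6g5b were searched on both strands for TTCNNNGAA, the interferon-gamma activated site, and for GAAANNGAA, the core of the interferon-stimulated response element. Neither occurred in any of these windows. Of 32851 RefSeq promoter windows of that length, 7.02% held the first motif and 7.13% the second. No match says only that these letters are not in these windows.

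Library totals ran from 16423106 to 19640693 counts. CD8 identity was checked with 15 T cell and CD8 genes, which took 0.751% to 0.787% of counts in the Biotin+ libraries and 0.482% to 0.614% in the Biotin- libraries. Fibroblast markers went the other way, with 11 of 13 tested lower in Biotin+ (edgeR adjusted p under 0.05), against 6.72% of all genes. Their median log2 fold change was -2.36, and 7 were lower without both libraries of replicate 2. Levels are given as CPM, the count relative to the library's total, scaled by TMM, a factor that evens out library composition. Log2 fold changes are Biotin+ minus Biotin-, and the median over all 13360 genes tested was 0.06.

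Each of the 7 genes had counts in every library and passed the filter on low counts. Together they took 0.193%, 0.121% and 0.0933% of counts in Biotin+ replicates 1 to 3 and 0.143%, 0.115% and 0.137% in the Biotin- replicates. Ly6e gave 40.8% to 52.2% of the family's counts in every library. Ly6c2 gave between 18.5% and 49.2%, and Ly6a between 8.23% and 23.3%. Ly6d and Ly6i each gave at most 0.330% in any library.

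Levels were compared between genes per kilobase of the longest transcript. On that scale the order was Ly6e, Ly6a, Ly6c2, Ly6c1, Ly6g5b, Ly6d and Ly6i in both groups. In Biotin+, Ly6e stood at 298 CPM per kilobase (range 204 to 352), Ly6a at 207 (170 to 226) and Ly6c2 at 200.4 (71.8 to 361), so the ranges of these 3 overlapped. Ly6c1 was at 27.1 (9.97 to 48.0), Ly6g5b at 15.1 (8.96 to 20.2), Ly6d at 3.01 (1.23 to 5.12) and Ly6i at 2.03 (1.62 to 2.38). The ranges of Ly6c1 and Ly6g5b overlapped, as did those of Ly6d and Ly6i. In Biotin-, Ly6e was at 253 (233 to 279), Ly6a at 213 (160 to 290), Ly6c2 at 123 (83.9 to 174) and Ly6c1 at 122 (67.6 to 203). Ly6c1 and Ly6c2 thus overlapped in Biotin- but not in Biotin+. Their near-equal Biotin- means depended on the lengths used, 2680 bases for Ly6c2 and 844 for Ly6c1. With median transcript lengths Ly6c2 was at 451 and Ly6c1 at 191 in Biotin-, and with merged exon lengths at 120 and 61.4. The Biotin- ranges overlapped with those lengths too. Ly6g5b, Ly6d and Ly6i followed in Biotin- at 3.64, 3.63 and 1.32 CPM per kilobase. The first 3 places changed with the transcript length used, and in Biotin+ those of Ly6c1 and Ly6g5b did too.

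**Figure D1:**
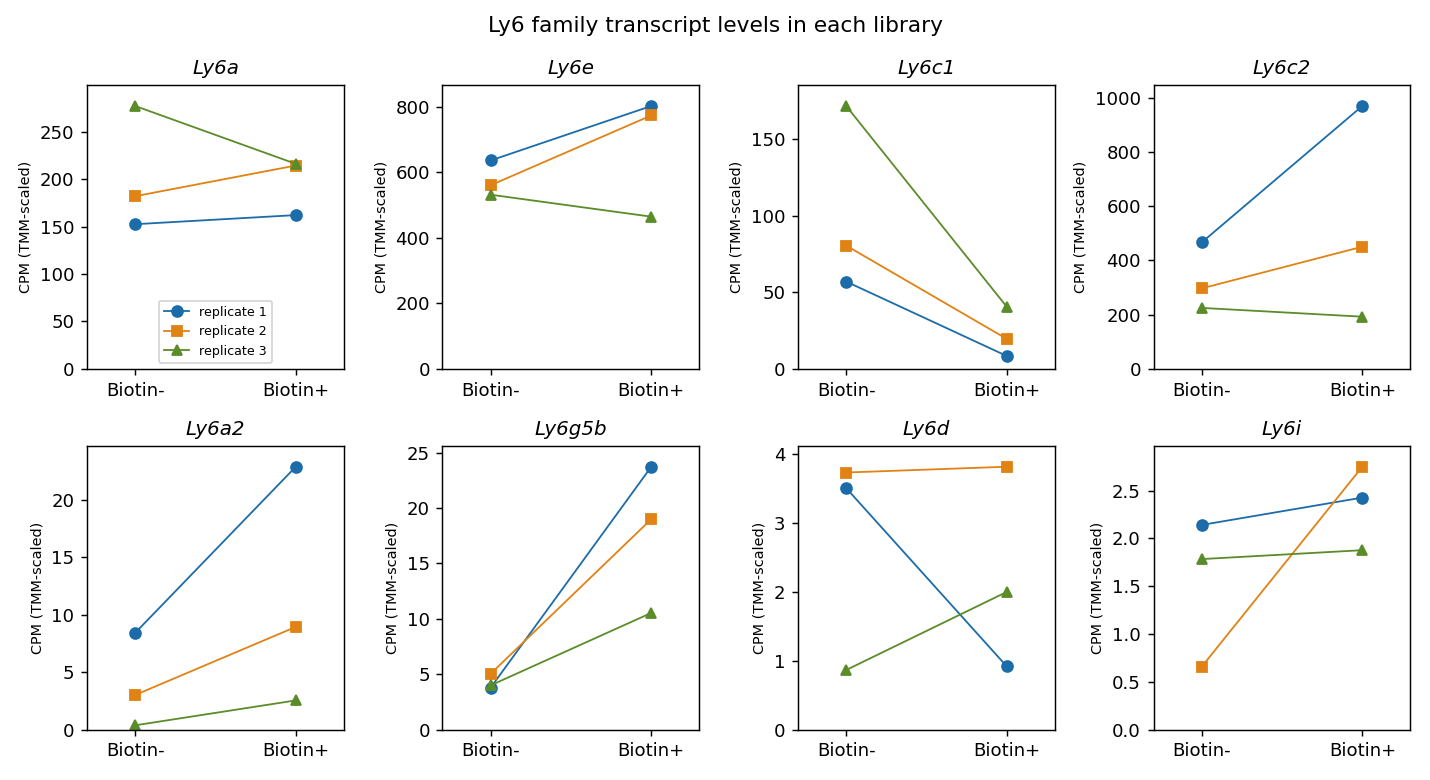
Level of the 7 Ly6 genes and of Ly6a2 in each library, in TMM-scaled CPM on linear axes starting at 0, with a line joining the Biotin- and Biotin+ libraries of the same replicate number. All 3 Ly6c1 lines fall and all 3 Ly6g5b lines climb from Biotin- to Biotin+, while Ly6c2 and Ly6a2 are highest in replicate 1 and lowest in replicate 3 of both groups.

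Ly6c1 was the gene lower in Biotin+ cells. It stood at 8.41, 19.6 and 40.5 CPM in Biotin+ replicates 1 to 3, and at 57.0, 80.5 and 172 CPM in the Biotin- replicates. Every Biotin- library was above every Biotin+ library. The means were 22.8 ± 16.3 and 103 ± 60.5 CPM (SD, n = 3 each), a log2 fold change of -2.18 ± 0.55 (SE), or 4.52-fold lower in Biotin+. Within replicate numbers the log2 differences were -2.76, -2.04 and -2.08. The spread between replicates was wide, with the highest Biotin+ library at 4.82 times the lowest.

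Ly6g5b, a poorly characterised Ly6 gene of the major histocompatibility complex class III region, was the gene higher in Biotin+ cells. Its levels were 23.7, 19.0 and 10.5 CPM in Biotin+ and 3.79, 5.05 and 4.00 CPM in Biotin-. The Biotin- libraries were close together, and all lay below the lowest Biotin+ library. The means were 17.8 ± 6.68 and 4.28 ± 0.671 CPM (SD, n = 3 each), a log2 fold change of 2.05 ± 0.35 (SE), or 4.15-fold higher. Within replicate numbers the log2 differences were 2.64, 1.91 and 1.39.

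Ly6c1 and Ly6g5b were the 2 of 7 members past an edgeR adjusted p of 0.05, where 8.26% of all genes tested were called, 1.53% higher and 6.72% lower. They were also the 2 whose libraries did not overlap between groups, as held for 29.2% of all genes. Since this contrast chose the members, nothing is read from these counts. With libraries left out, the log2 fold change ran from -2.88 to -1.59 for Ly6c1 and from 1.71 to 2.32 for Ly6g5b. Ly6c1 was past the threshold under 11 of 18 alternatives and Ly6g5b under 16 of 18. The same contrast was known when the members were chosen, so these counts add no support. Ly6c1 did not pass with limma-voom, with no filter or in several fits with libraries left out.

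The other 5 members overlapped between the groups. Ly6c2 stood at 969, 450.3 and 192 CPM in Biotin+ and at 466, 297 and 225 CPM in Biotin-. The Biotin+ libraries held both the highest and the lowest value, and the log2 fold change was 0.71 ± 0.49 (SE). It rested on Biotin+ replicate 1, without which it was -0.03, and it was 0.05 with limma-voom and 0.04 with scaling on CD8 identity genes. With libraries left out it ran from -0.03 to 1.11. Ly6a was at 162, 214 and 216 CPM in Biotin+ and at 153, 182 and 277 CPM in Biotin-. Its means of 198 ± 30.7 and 204 ± 65.1 CPM (SD, n = 3 each) differed by -0.05 ± 0.25 (SE) on the log2 scale.

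Ly6e, which regulates T cell activation and the entry of some viruses, had the first place in the order per kilobase of the longest transcript. Its levels were 803, 774 and 465 CPM in Biotin+ and 637, 561 and 532 CPM in Biotin-. The lowest library was Biotin+ replicate 3, and the log2 fold change was 0.24 ± 0.25 (SE). Ly6d, a marker of early B cell commitment and of keratinocytes, ranged from 0.917 to 3.81 CPM in Biotin+ and from 0.865 to 3.73 CPM in Biotin- (log2 fold change -0.27 ± 0.67 SE). Ly6i ranged from 1.88 to 2.75 CPM in Biotin+ and from 0.658 to 2.14 CPM in Biotin- (0.62 ± 0.57 SE). A library's count of 3 corresponded to 0.146 to 0.188 CPM, so Ly6d and Ly6i lay above that level in every library. Their counts were 16 to 72 for Ly6d and 12 to 45 for Ly6i.

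Scaling moved these near-level members. When libraries were scaled on the CD8 identity genes, the median over all genes became -0.62, Ly6a became -0.78, Ly6e -0.46 and Ly6i -0.14. Ly6g5b became 1.37 and Ly6c1 -2.91 under that scaling. The sign of the Ly6e and Ly6i values thus depended on the scaling.

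The balance of Ly6c1 and Ly6c2 varied more between libraries than either group mean shows. Of the counts of both genes, Ly6c1 took 0.861% in Biotin+ replicate 1 (95% Wilson interval 0.736% to 1.01%), 4.16% in replicate 2 (3.74% to 4.64%) and 17.4% in replicate 3 (16.2% to 18.6%). In Biotin- it took 10.9% (10.3% to 11.5%), 21.3% (20.4% to 22.3%) and 43.3% (42.2% to 44.4%). The intervals cover counting error only. The group means were 7.47% ± 8.75 and 25.2% ± 16.5 (SD, n = 3 each). Each Biotin+ library was below the Biotin- library of its number, yet Biotin+ replicate 3 was above Biotin- replicate 1, so the groups overlapped.

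**Figure D2:**
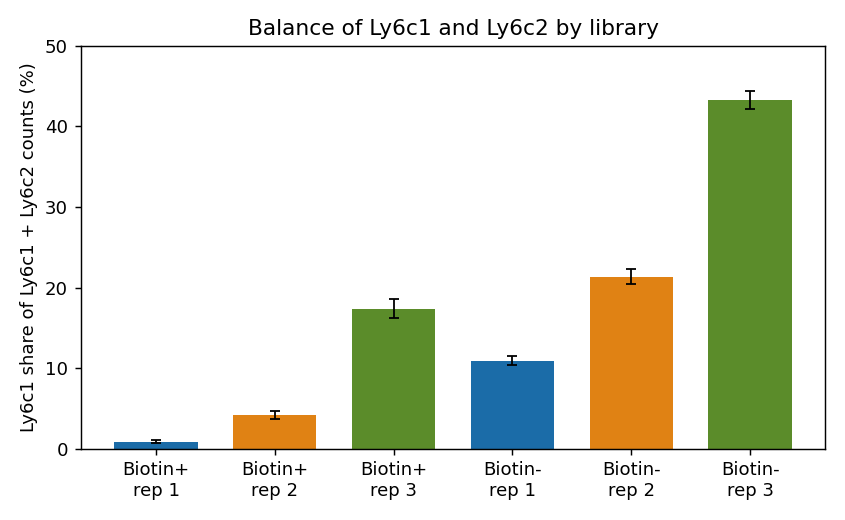
Share of Ly6c1 in the summed counts of Ly6c1 and Ly6c2, in percent, for each library, with 95% Wilson intervals for counting error as error bars and colours for replicate numbers. The share runs from 0.861% in Biotin+ replicate 1 to 43.3% in Biotin- replicate 3, and replicate 3 is the highest in both groups.

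The replicate number was tested as a term of its own, a measure that the choice of genes did not use. The term was added after the data had been seen. It asks in edgeR, with the Biotin status in the fit, whether the 3 numbers differ in both groups alike. Of 13360 genes, 2.69% were called at an adjusted p under 0.05, and so were 2 of the 7 members, Ly6c1 and Ly6c2. Ly6c1 was higher in replicate 3 than in replicate 1 by 1.90 on the log2 scale (adjusted p = 0.00321 over all genes, rank 28). Ly6c2 differed the opposite way, by -1.68 (adjusted p = 0.00825, rank 73). Both directions held in both groups: the highest Ly6c1 library and the lowest Ly6c2 library of each group was replicate 3. The call of Ly6c2 was lost when libraries were scaled by their totals (adjusted p = 0.0638) and when Biotin+ replicate 2 was left out (adjusted p = 0.165 from the same edgeR test).

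For the other 5 members the replicate term was not called. Ly6a differed by 0.65 between replicates 3 and 1 (adjusted p = 0.245) and Ly6e by -0.51 (adjusted p = 0.370). The values of Ly6g5b, Ly6d and Ly6i were -0.60, -0.54 and -0.31, with adjusted p of 0.534, 0.484 and 0.878 from the same fit.

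Ly6a2, the gene with the Ly6c2-like upstream sequence, had the largest replicate difference of the 12 tested Ly6 genes. It stood at 22.9, 8.94 and 2.54 CPM in Biotin+ replicates 1 to 3 and at 8.42, 3.02 and 0.378 CPM in Biotin-. Replicate 1 was the highest and replicate 3 the lowest in both groups, as for Ly6c2. The log2 difference between replicates 3 and 1 was -3.62 (edgeR adjusted p = 0.00116, rank 14 of 13360 genes). In the Biotin contrast its log2 fold change was 1.54 ± 0.92 (SE), which did not pass (adjusted p = 0.367). With the replicate number as a block it was higher in Biotin+ by 1.75 (adjusted p = 0.0013), and 17.6% of all genes were called in that fit. Of the 75-base windows of Ly6a2 transcripts, 1.24% occur in any other gene. Ly6a2 counts were 0.168% to 2.31% of the sum of Ly6a2 and Ly6c2 counts.

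**Figure D3:**
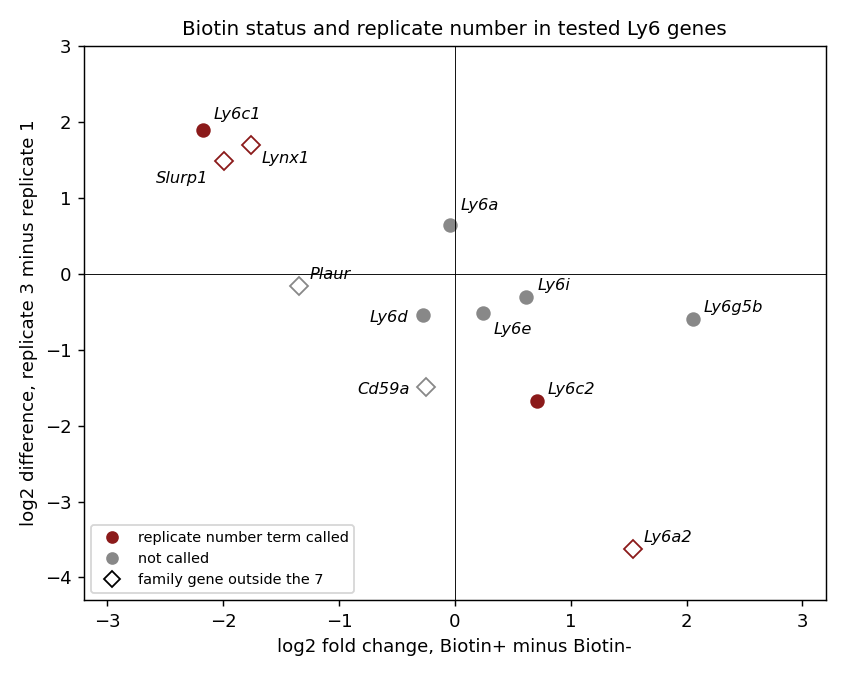
Log2 fold change between Biotin+ and Biotin- (x axis) against the log2 difference between replicate 3 and replicate 1 (y axis) for the 12 tested Ly6 genes. Filled circles are the 7 members and open diamonds the others, red where the replicate term was called. Ly6c1 lies at -2.18 and 1.90, Ly6c2 at 0.71 and -1.68, and Ly6a2 at 1.54 and -3.62.

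Markers of other cell types were read beside these differences. Their part in them was not tested. The 14 fibroblast markers took 0.0537%, 0.0286% and 0.0605% of counts in Biotin+ replicates 1 to 3 and 0.351%, 0.192% and 0.269% in Biotin-. They were higher in Biotin-, as Ly6c1 was. Within Biotin+, replicate 3 had the highest fibroblast share and the highest Ly6c1 level. Within Biotin-, replicate 1 had the highest fibroblast share and the lowest Ly6c1 level. That Biotin- order rested in large part on 1 gene, Fn1, with 28435, 9373 and 9086 counts in Biotin- replicates 1 to 3. The other markers were split, some being highest in Biotin- replicate 1 (Col1a1) and some in replicate 3 (Sparc). Of 5 endothelial markers tested, 0 passed in edgeR or DESeq2, while before adjustment 1 was higher and 1 lower at a p under 0.05. The replicate block called 1 lower, Pecam1 (edgeR adjusted p = 0.0287), against 12.0% of all genes. Scaling on the CD8 identity genes called 2 lower, against 3092 of all 13360 genes. The 15 endothelial markers together took 0.00135% to 0.00276% of counts in Biotin+ and 0.00314% to 0.00437% in Biotin-. They too were higher in Biotin-. Pecam1, which leukocytes also carry, had 304, 183 and 117 counts in Biotin+ and 411, 455 and 301 in Biotin-. Genes more specific to vessel lining had few counts, and most of these genes had more in Biotin-. Egfl7, the 1 marker higher before adjustment, went the other way, with 53, 69 and 73 counts in Biotin+ and 36, 41 and 36 in Biotin-. Its log2 fold change was 0.96 (edgeR adjusted p = 0.217). Cdh5 had 8, 1 and 0 counts in Biotin+ and 21, 27 and 3 in Biotin-. Plvap had 0 in each Biotin+ library and 6, 20 and 0 in Biotin-. In bulk RNA, fewer cells of a type and less RNA per cell cannot be told apart.

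Monocyte and macrophage markers were read beside Ly6c2, since monocytes also carry Ly6C. Of 15 tested, edgeR and DESeq2 called 0 in the Biotin contrast (before adjustment 3 had a p under 0.05, all lower). But the block called 4 lower, against 12.0% of all genes, and CD8 identity scaling called 7 lower. For the replicate number 6 of 15 were called, against 2.69% of all genes. The 15 markers took 0.144%, 0.118% and 0.0484% of counts in Biotin+ and 0.417%, 0.111% and 0.147% in Biotin-. Within each group replicate 1 had both the highest share and the highest Ly6c2 level. Between the groups the share was higher in Biotin- for replicates 1 and 3, while the Ly6c2 level was higher in Biotin+ for replicates 1 and 2. Ly6g, the defining neutrophil member of the family, had at most 2 counts in a library. Other neutrophil markers had more. S100a9 had 20, 139 and 10 counts in Biotin+ and 28, 45 and 0 in Biotin-, and Mmp9 had 57, 47 and 66 against 116, 84 and 150. Of 4 neutrophil markers tested, edgeR called 0 in the Biotin contrast and 1 for the replicate number, against 2.69% of all genes. Natural killer and gamma-delta T cell markers were called for the replicate number in 3 of 6, and the 15 CD8 identity genes in 0, again against 2.69% of all genes.

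**Figure D4:**
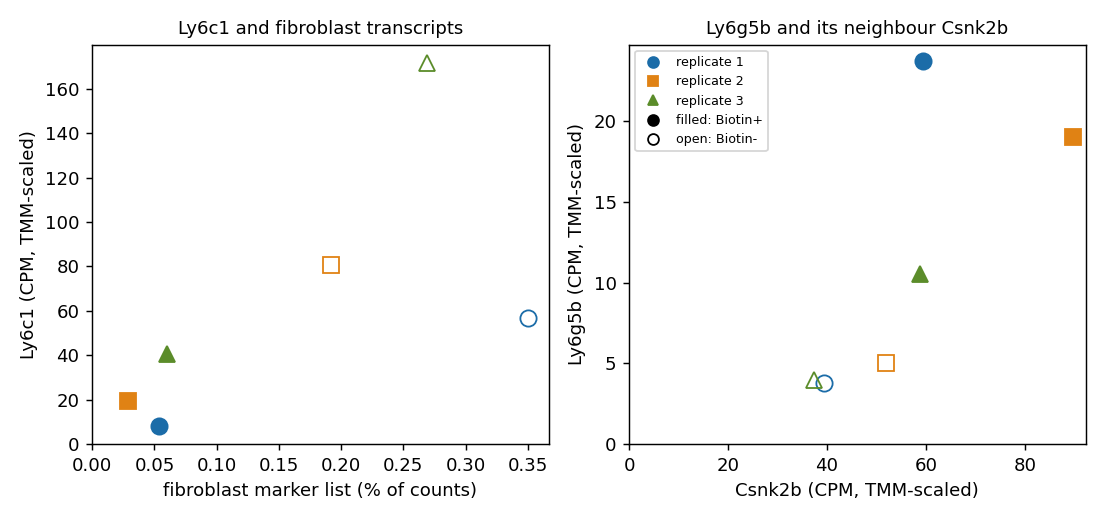
Left, Ly6c1 level (TMM-scaled CPM) against the share of counts from 14 fibroblast markers. Right, Ly6g5b level against that of its neighbour Csnk2b, both in TMM-scaled CPM, 1 point a library, with filled points for Biotin+, open points for Biotin- and 1 shape a replicate number. The Biotin- libraries lie to the right of and above the Biotin+ libraries in the left panel, and to the left of and below them in the right panel. The highest fibroblast share of a group goes with the highest Ly6c1 level in Biotin+ (replicate 3, 0.0605% and 40.5 CPM) and with the lowest in Biotin- (replicate 1, 0.351% and 57.0 CPM). In that Biotin- library 1 marker, Fn1, had 28435 counts, against 9373 and 9086 in Biotin- replicates 2 and 3.

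Ly6g5b was read beside Csnk2b, which encodes the regulatory subunit of casein kinase 2 and lies next to it on the same strand. In RefSeq the gene models overlap by 2364 bases. The window around 1 of the annotated Ly6g5b starts (chr17:35118509-35118808) holds a run of 273 bases that occurs in a Csnk2b transcript. Of the 300 bases of that window, 250 lie before the start, outside the Ly6g5b model, so most of the run is not Ly6g5b transcript. In GENCODE M21 the 2 models do not overlap, and no 50-base window of Ly6g5b transcripts occurs in another gene. Csnk2b was at 59.5, 89.6 and 58.7 CPM in Biotin+ and at 39.4, 51.8 and 37.4 CPM in Biotin-. Its log2 fold change was 0.69 ± 0.24 (SE), which did not pass (edgeR adjusted p = 0.105) but did with the replicate block (adjusted p = 0.0218). Ly6g5b took 28.5%, 17.5% and 15.2% of the counts of both genes in Biotin+ and 8.79%, 8.87% and 9.66% in Biotin-. Its share was thus higher in each Biotin+ library, with means of 20.4% ± 7.12 and 9.11% ± 0.480 (SD, n = 3 each). Reads assigned to Ly6g5b that came from Csnk2b transcripts cannot be told apart in gene counts.

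The rest of the superfamily was sparse. Of 38 other Ly6 and uPAR domain genes in the table, 22 had no count in any library, 11 were removed by the filter with at most 14 counts in a library, and 5 were tested. Plaur, the urokinase receptor, was lower in Biotin+ at 47.7, 40.9 and 41.9 CPM against 145, 55.6 and 131 CPM (log2 fold change -1.35 ± 0.32 SE, edgeR adjusted p = 0.0279). The count of lower genes was 0 of this list without Biotin+ replicate 1 or 2, Biotin- replicate 1 or 3, or both libraries of replicate 1, so that call rests on each of them. Slurp1, a secreted Ly6 protein, was at 0.688 to 3.63 CPM in Biotin+ and 3.02 to 11.2 CPM in Biotin- (-1.99, adjusted p = 0.116). Lynx1, which binds nicotinic receptors, was at 1.03 to 6.48 and 5.92 to 15.8 CPM (-1.76, adjusted p = 0.143). Under the replicate block, where 12.0% of all genes were lower and 5.60% higher, Slurp1, Lynx1 and Plaur were lower and Ly6a2 was higher. Slurp1 and Lynx1 were also called for the replicate number (adjusted p = 0.0481 and 0.0360), both highest in replicate 3. Cd59a, a complement inhibitor, was not called in the Biotin contrast (-0.25 ± 0.80 SE).

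Genes around the cluster and around Ly6g5b were read next. Of 39 neighbouring genes, 16 were tested and 1 was lower, Ddah2, a gene of the dimethylarginine hydrolase family near Ly6g5b. Over all genes 6.72% were lower, so this count is near the background. Ddah2 was at 7.71, 14.1 and 17.1 CPM in Biotin+ and 33.0, 27.3 and 63.6 CPM in Biotin- (log2 fold change -1.67 ± 0.38 SE, edgeR adjusted p = 0.0241). The count of lower neighbours was 0 without Biotin+ replicate 2, Biotin- replicate 3, or both libraries of replicate 1 or 2, and 3 without Biotin+ replicate 3 or both libraries of replicate 3. With the block, 2 were higher and 4 lower, against 5.60% and 12.0% of all genes. RefSeq also places Ly6a and Ly6i inside the antisense non-coding gene Gm28068. Their reads could not be separated from its reads if strand was not used in counting. Gm28068 itself had 4, 0 and 7 counts in Biotin+ and 2, 6 and 10 in Biotin-. The overlap is one of gene spans, and overlap of exons was not examined.

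Interferon targets are the textbook companions of Ly6a and Ly6c genes. Of 33 tested, 0 rose and 2 fell in Biotin+, with a median log2 fold change of -0.31. The share that fell was near the 6.72% of all genes. At an unadjusted p under 0.05, 3 were higher and 11 lower, with no share of all genes counted at that p. DESeq2 called 1 higher and 4 lower, and 471 higher and 1389 lower over all 13360 genes. The 2 were Cxcl10, a chemokine for T cells (-1.07, edgeR adjusted p = 0.0123), and Oasl2, an antiviral protein (-1.76, adjusted p = 0.018). With the block 2 rose and 7 fell, against 5.60% and 12.0% of all genes. With CD8 identity scaling 17 fell, where 3092 of all 13360 genes fell and the median over all genes was -0.62. Without Biotin- replicate 3 none fell. Of 12 interferon signalling genes 1 fell, Ifngr2, a chain of the interferon-gamma receptor (-1.19, adjusted p = 0.018), and 0 rose. DESeq2 called 1 higher and 2 lower, against the same 471 and 1389 of all genes. Before adjustment 2 of each had a p under 0.05. With the block 3 rose and 3 fell, against 5.60% and 12.0% of all genes. The count of fallers was 0 without Biotin+ replicate 2, Biotin- replicate 1 or 3, or both libraries of replicate 3.

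Some interferon targets differed between replicate numbers as Ly6c1 did. The replicate term was called in 4 of 33, against 2.69% of all genes. Iigp1, an immunity-related GTPase, was at 3.94, 2.31 and 13.9 CPM in Biotin+ and 13.7, 14.0 and 63.4 CPM in Biotin-, highest in replicate 3 of both groups (2.02 between replicates 3 and 1, edgeR adjusted p = 0.000745). Gbp2, a guanylate-binding protein, followed (1.32, adjusted p = 0.00385), as did Igtp (0.61, adjusted p = 0.0498). Rsad2, an antiviral enzyme, went the other way (-1.26, adjusted p = 0.0178).

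Of 28 enzymes that build and attach the GPI anchor, 1 rose and 0 fell, against 1.53% and 6.72% of all genes. The median was 0.25, and 22 of the 28 had a positive value. Over all genes the median was 0.06, and 7385 of 13360 had a positive value. The gene that rose was Gpaa1, a subunit of the transamidase that attaches the anchor (log2 fold change 0.76 ± 0.21 SE, edgeR adjusted p = 0.0477). It did not pass under any fit with a library left out, or with another scaling or limma-voom. At an unadjusted p under 0.05, 5 were higher and 0 were lower, and DESeq2 called 1 higher. The block called 3 higher, Gpaa1, Pigs and Pigx, against 5.60% of all genes. Of 11 other GPI-anchored surface proteins, 2 rose and 1 fell. Thy1, a T cell surface protein, averaged 1844 ± 410.4 CPM in the Biotin+ libraries and 803 ± 210.0 CPM in the others (SD, n = 3 each), a log2 fold change of 1.20 (adjusted p = 0.0235). Cd52, a small lymphocyte glycopeptide, rose by 0.95 (adjusted p = 0.0367). Prnp, the prion protein, fell by 1.20 on the log2 scale (adjusted p = 0.037). With the block, 4 rose and 2 fell, against 5.60% and 12.0% of all genes. The count of risers was 0 or 1 when any 1 of Biotin+ replicates 1 and 2 and Biotin- replicates 1 and 3 was left out.

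Genes of naive and memory T cells, among which Ly6C is used as a marker, were split. Of 15 tested, 1 rose and 4 fell in Biotin+, against 1.53% and 6.72% of all genes, and the median was -0.01. Il2rb, a shared chain of the interleukin 2 and 15 receptors, rose by 0.96 (edgeR adjusted p = 0.027). Tcf7, a transcription factor of stem-like T cells, fell by 1.77 on the log2 scale, from 297 ± 30.8 CPM in Biotin- to 87.2 ± 5.39 CPM in Biotin+ (SD, n = 3 each; adjusted p = 0.00442). Klf2, a regulator of tissue exit, fell by 1.64 (adjusted p = 0.00554). S1pr1, the exit receptor it controls, fell by 2.11 (adjusted p = 0.00603). With libraries left out, 3 to 5 of the 15 fell and 0 or 1 rose, Il2rb not passing when Biotin+ replicate 1, Biotin- replicate 1, Biotin- replicate 3 or both libraries of replicate 1 or of replicate 3 were omitted. With CD8 identity scaling 0 rose and 6 fell. The log2 fold change of Ly6c2 beside these was 0.71 ± 0.49 (SE).

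The genes with the most similar profile over the 6 libraries were found for the 5 members with a mean of at least 10 CPM, among 8556 genes. Likeness was the root mean square distance of centred log2 CPM. Nearest to Ly6c1 were Cavin3 (0.31), Tm4sf1 (0.33) and Mxra7 (0.34). Cavin3 stood at 8.52, 14.3 and 25.3 CPM in Biotin+ and 50.4, 45.1 and 100.1 CPM in Biotin-, replicate 3 being the highest of each group as for Ly6c1. Nearest to Ly6c2 were Qpct (0.21), Fgr (0.22) and Ccr2 (0.29). Ccr2, a chemokine receptor that is also on the monocyte and macrophage list, stood at 111, 38.8 and 31.2 CPM in Biotin+ and 45.8, 34.5 and 28.7 CPM in Biotin-, with replicate 1 the highest of each group. Nearest to Ly6g5b were Grb7, Dkkl1 and Slc52a3 (0.39 to 0.40). Ly6a was nearest to Tma16, Mrpl1 and Ppox (0.07 to 0.10), and Ly6e to Tonsl, Trim27 and Cirbp (0.09 to 0.11). These likenesses rest on 6 libraries and are descriptions.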

How the data were processed

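Poly-A RNA of sorted CD8 T cells was sequenced in 3 Biotin+ and 3 Biotin- libraries. Values are raw counts by gene symbol, as deposited, per the labels. Trim Galore 0.6.7, STAR 2.7.10a, Picard 1.14, featureCounts 2.0.1 and GRCm39 are named in the submitters' processing notes. Annotation, strand use and handling of multi-gene reads: not given in the sources used here. The 7 members and all gene lists were chosen with earlier results of these data known.

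The table was fitted whole with edgeR 4.0.16 in R 4.3.3 (filterByExpr, TMM, robust quasi-likelihood F test, group alone), with Benjamini-Hochberg adjustment over 13360 genes and a threshold of 0.05. The share of all genes at an unadjusted p under 0.05 was not counted, so list counts at that p have no background. The SE was taken as the size of the log2 fold change over the square root of F. The fit was tested on simulated data. The biological coefficient of variation was 0.311. Same-numbered libraries deviated together (correlations 0.366, 0.263 and 0.393, other pairs -0.276 to -0.0721), which was read as a pairing of the libraries. The pairing comes from the data, not from the labels. Replicates of a group differed by more than sampling noise, and all 6 libraries were kept. Alternatives were other scalings and filters, DESeq2 1.42.0, limma-voom (limma 3.58.1), the replicate block and libraries left out. Intervals are 95% Wilson intervals, which treat reads as independent molecules although no molecular identifiers were used.

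Genes named were the 7 members, other Ly6 genes with a mean of at least 1 CPM, up to 4 genes of smallest p per list, the 3 nearest profiles per member, called neighbours and Csnk2b. Cd59a, the genes called for the replicate term and low marker genes were named after their values were seen. Windows, motifs and coding identity were computed from GENCODE M21 and RefSeq, both on GRCm38. All coordinates are from RefSeq on GRCm38.p6, another build than that of the counts. RefSeq promoter windows were at hand for Ly6c1, Ly6c2 and Ly6g5b of the 7 members. Some genes that the naming rule covers are not reported here.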

Additional observations from a re-analysis of the deposited data

How the results depend on the processing

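Of 126 member fold changes under an alternative, 122 moved by less than the spread between replicates, 4 moved by more and 0 changed sign while called. Members never called could not count as such a change. Signs did change without a call, as for Ly6a (-0.05, and 0.24 without Biotin- replicate 3) and Ly6d (-0.27, and 0.34 without both libraries of replicate 1). The spread was wide, with a pooled SD of 0.91 for Ly6c2, so its fall from 0.71 to -0.03 without Biotin+ replicate 1 counted as not moved. The calls were less stable than the values, with Ly6c1 called in 11 of 18 alternatives and Ly6g5b in 16 of 18. The members were chosen with this contrast known, so these counts describe the settings and are no test. The 4 values that moved came from scaling on CD8 identity genes: Ly6a -0.78, Ly6e -0.46, Ly6g5b 1.37 and Ly6i -0.14. Over all genes, those called higher in Biotin+ were 205, and 29 with identity scaling, 84 with library size scaling, 471 with the DESeq2 Wald test, 351 with limma-voom, 396 with no filter and 748 with the replicate block. Those called lower were 898, and 3092 with identity scaling, 1389 with DESeq2, 1495 with no filter and 1599 with the block. Leaving libraries out gave 23 to 200 higher and 239 to 1044 lower; without both libraries of replicates 1, 2 and 3 in turn, 67, 46 and 39 were higher and 385, 445 and 588 lower, with fewer samples. The replicate block, taken as a pairing, added Ly6a2 higher and Slurp1 and Lynx1 lower among the other Ly6 genes (1 higher and 3 lower). Lower other Ly6 genes numbered 1, and 3 with identity scaling, DESeq2 or no filter and 0 to 3 with libraries left out. Genes called for the replicate number were 360, and 858 with identity scaling, 71 with library size scaling, 1029 with no filter and 247 to 3176 with libraries left out. These settings for the replicate number were chosen after seeing the data. With median transcript length, Ly6c2 ranked 2 and Ly6a 3 in both groups. With merged exon length, Biotin+ ranks were Ly6c2 1, Ly6e 2, Ly6a 3, Ly6g5b 4 and Ly6c1 5, and Biotin- ranks were Ly6a 1 and Ly6e 2. The causes of these shifts were not tested. Depth limits Ly6d and Ly6i, with few reads a library.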
